A study of Mus musculus with 6 samples.

Results

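The genes described here encode matrix metalloproteinases (MMPs) and the tissue inhibitors of metalloproteinases (TIMPs). They are Mmp2, Mmp3, Mmp9, Mmp11, Mmp13, Mmp14, Mmp15, Timp1, Timp2 and Timp3, that is 10 of the 36799 genes or unnamed transcripts with a gene probe on the arrays. A probe was taken as theirs when its RefSeq accession belonged to one of these symbols, which gave 12 probes, because Mmp11 and Timp2 had a further probe each. RNA came from live CD45- cells, the fraction that lacks the leukocyte protein CD45 and is enriched in tumor cells, sorted from orthotopic mammary tumors. The tumors had grown from transplanted MMTV-PyMT late carcinoma cells, in which the polyomavirus middle T oncogene is driven by the MMTV promoter that is active in mammary epithelium. The transplanted cells were RANK+/+ or RANK-/-, and all hosts were young syngeneic C57BL/6 females that kept their own RANK, so that stromal cells recruited by the tumors were of the host genotype in both groups. Tnfrsf11a encodes RANK, a TNF-family receptor that signals to NF-kB. Each array received an RNA labeled RANK-/- and an RNA labeled RANK+/+ in different dyes, and 6 arrays held 3 such pairs, with technical replicate arrays A and B for each pair. In pair 1 the RNA labeled RANK-/- carried Cy5, and in pairs 2 and 3 it carried Cy3. Nothing in the labels states that the RNAs of a genotype are from separate tumors. The p-values rest on the spread between the 3 pairs, which may then not be a spread between tumors.

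MMPs are zinc-dependent endopeptidases that cleave collagens, laminins and other matrix proteins as well as growth factors and cytokines. Most are secreted as inactive proenzymes and are opened by other proteases, while the membrane-type MMPs are activated by furin-like convertases and act at the cell surface. TIMPs bind the active site of the enzymes and block it. In mammary tumors much of the MMP RNA is made by stromal fibroblasts, endothelial cells and infiltrating leukocytes rather than by the carcinoma cells, and AP-1 (the Fos and Jun proteins) is a well-known activator of the stromelysin and collagenase genes.

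The promoters of the genes that varied most between pairs are shown first, together with Mmp15 and Timp2, whose ratios had the same signs as those of Mmp13. RefSeq (GRCm38.p6) promoter windows, from 250 bases before to 50 bases after the annotated transcript start, were found for 8 of the 10 genes, with no entry for Mmp2 and Mmp9. The motif searched for AP-1 was TGANTCA. For the TATA box the letters were TATAAA. For the GC box, bound by Sp1-like factors, they were GGGCGG. The 120 bases before each start are printed 5′ to 3′ on the gene's strand. Capitals mark these matches, with GC boxes on the opposite strand appearing as their reverse complement:
Mmp3, chr9:7445702-7445821, plus strand: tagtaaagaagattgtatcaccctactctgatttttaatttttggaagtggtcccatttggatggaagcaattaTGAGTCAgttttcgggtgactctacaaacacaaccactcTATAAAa
Mmp13, chr9:7272394-7272513, plus strand: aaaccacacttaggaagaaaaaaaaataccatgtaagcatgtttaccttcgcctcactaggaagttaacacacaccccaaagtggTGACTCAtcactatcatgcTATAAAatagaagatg
Mmp15, chr8:95352176-95352295, plus strand: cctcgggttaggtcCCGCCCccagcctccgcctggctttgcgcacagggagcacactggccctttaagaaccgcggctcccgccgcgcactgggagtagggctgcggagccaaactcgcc
Timp2, chr11:118355412-118355531, minus strand: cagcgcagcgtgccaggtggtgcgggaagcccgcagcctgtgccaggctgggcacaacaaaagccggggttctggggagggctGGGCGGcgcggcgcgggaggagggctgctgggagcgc

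The windows of Mmp3 and Mmp13 held an AP-1 match and a TATA match each, and the other 6 windows held neither. The AP-1 match lay at -46 to -40 in Mmp3 and at -35 to -29 in Mmp13, counted from the start. The TATA match lay at -7 to -2 in Mmp3 and at -16 to -11 in Mmp13. All these distances depend on the annotated start, and whether it is the start used in these cells was not tested. Over all 32851 mouse promoter windows of this length, 7.81% held the AP-1 letters and 13.6% the TATA letters. GC boxes were found in the 6 windows without AP-1 (Mmp11, Mmp14, Mmp15, Timp1, Timp2 and Timp3), against 35.7% of all windows. The letters GGNNTTTCC, for the NF-kB factors that act downstream of RANK, were in 5.82% of all windows and in 0 of the 8. All motifs were searched on both strands, and no match overlapped a match of another motif. The base composition also differed: GC made up 35.8% of the Mmp3 stretch and 37.5% of that of Mmp13. It made up 54.2% for Mmp14, 65.0% for Timp1, 69.2% for Mmp11 and Timp3, 70.0% for Mmp15 and 75.0% for Timp2. The GC content of all promoters was not computed. A match describes letters and is not evidence of a bound factor.

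**Figure D1:**
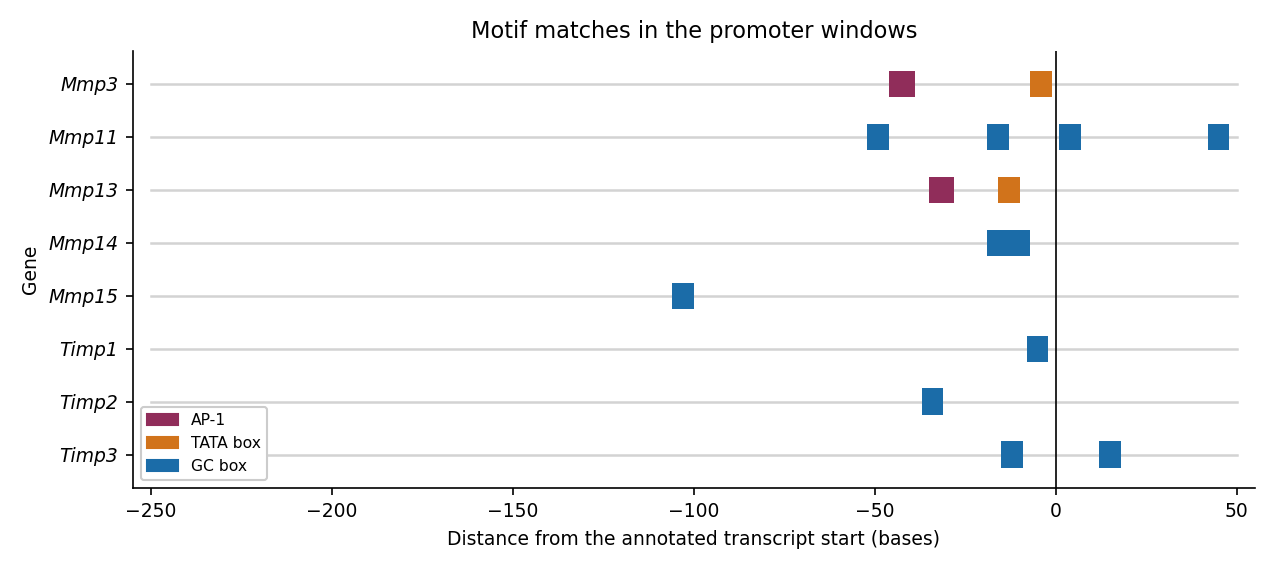
Motif matches in the promoter windows of the 8 genes with a RefSeq entry, by distance in bases from the annotated transcript start (grey lines, the searched window; coloured boxes, matches). Mmp3 and Mmp13 carry an AP-1 and a TATA match just before the start, and the other 6 genes carry GC boxes alone.

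Across all genes, 28926 to 32756 of 55681 gene probes (51.9% to 58.8%) were well above background in each channel, and 22503 genes passed the detection filter. Arrays A and B of a pair agreed closely over these genes (r = 0.973 to 0.983), whereas the pairs did not resemble each other (r = -0.279, 0.178 and -0.0792). The labels were checked with Tnfrsf11a, the gene for RANK. Its 1 probe was detected in each channel of 6 of 6 arrays, and in every pair the RNA labeled RANK-/- had the higher signal (log2 ratios 2.03, 1.15 and 1.76; limma adjusted p 1.00), which goes against the label. Where this probe lies relative to the deleted part of the gene is not given in the sources used here, and the RNAs are therefore called by their labels in the results. Whether labels or dyes were exchanged was not tested, and an exchange in every pair would turn the sign of all ratios given here. The luminal epithelial markers were present, with 9 of 9 well above background on all arrays in both channels. So were 14 of 14 fibroblast markers. Ptprc, which encodes CD45 itself, was detected for the RNA labeled RANK-/- on 5 of 6 arrays and for the RNA labeled RANK+/+ on 4 of 6.

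The main comparison set MMP and TIMP RNA of the fractions labeled RANK-/- against that of the fractions labeled RANK+/+. None of the 10 genes had the same direction in all 3 pairs: 0 were higher and 0 were lower throughout, where 9.95% and 9.65% of all tested genes were. The direction differed between pairs for 10 of 10 (9 of 9 without Mmp9, which was near background), compared with 80.4% of all genes. For Mmp11 this held for its brighter probe, while its dimmer probe was above 0 in all pairs. By limma with Benjamini-Hochberg adjustment over all 22503 genes, 0 of 10 were called, as were 0% of all genes. At an unadjusted p below 0.05 the count was again 0 of 10 (2.88% of all genes), but it was 4 of 10 without pair 2 (8.34% of all genes) and 2 of 10 without pair 1 (4.02%), and 3 of 10 with all 6 arrays and the pair as a random block (6.07%). By the rank product it was 0 of 10 (0.0311% of all genes). The signals of the 3 RNAs labeled RANK-/- lay entirely above the other 3 for 0 genes (3.69% of all) and entirely below for 0 (3.77% of all). With 3 pairs, an exact sign-flip test cannot give a two-sided p below 0.25.

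The differences inside single pairs were nevertheless large for some of these genes. At least 2-fold differences were measured for 4 of 10 in pair 1 (6.5% of all genes), 2 of 10 in pair 2 (4.82%) and 4 of 10 in pair 3 (7.92%). The range over the pairs was above 2 log2 units for Mmp3, Mmp13 and Timp2, or 3 of 10, compared with 5.57% of all genes. The technical arrays of a pair differed by at most 0.225 log2 units for any of the 10, and the SD between pairs was a median 12.3 times the SD between technical arrays. The spread was thus between the pairs and not between the technical arrays. In pair 1, 6 of the 10 were higher in the RNA labeled RANK-/- (52% of all genes), in pair 2 it was 3 (48.3%), and in pair 3 it was 8 (50.2%).

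**Figure D2:**
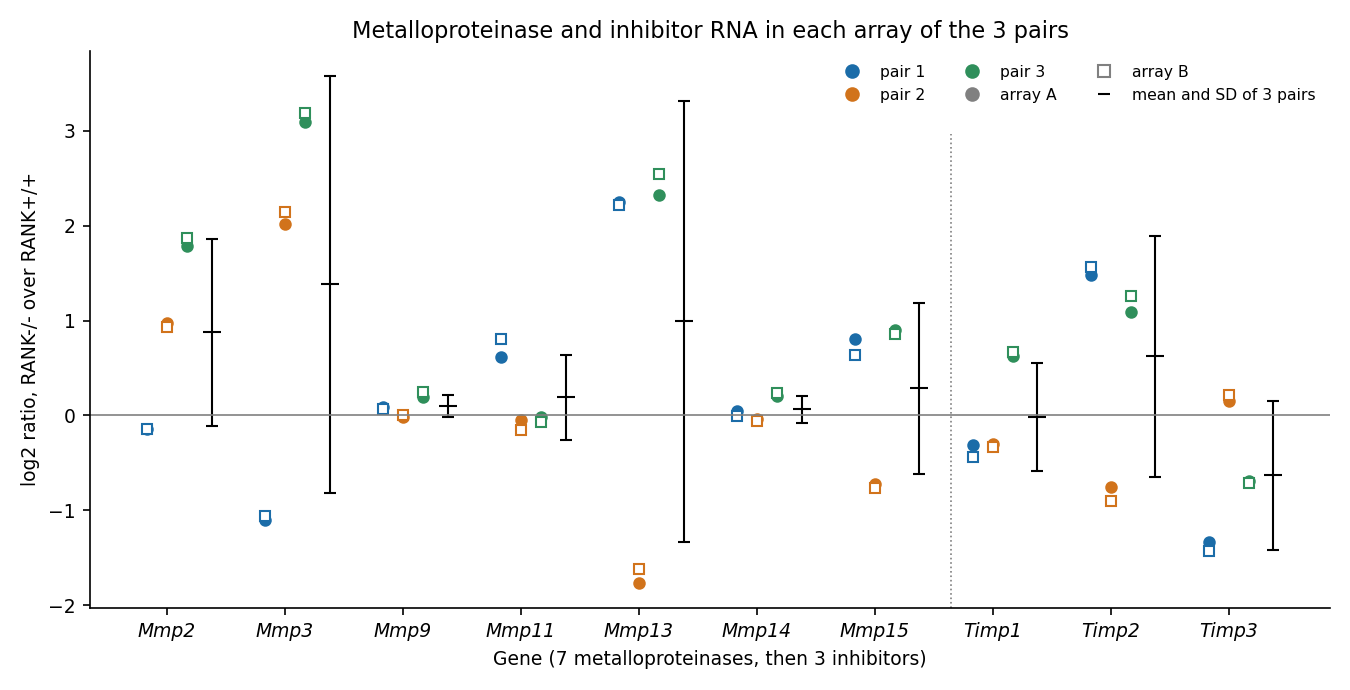
Log2 ratio of the RNA labeled RANK-/- over the RNA labeled RANK+/+ for 7 MMP genes and 3 TIMP genes (y axis, log2 units), with filled circles for array A, open squares for array B, colours for the 3 pairs, and a black bar for the mean and SD of the pairs (n = 3). Arrays A and B fall within 0.225 log2 units of each other, while the pairs of Mmp3 and Mmp13 lie on both sides of 0 and over 4 units apart.

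Stromelysins degrade proteoglycans, laminin and fibronectin, and stromelysin 1, encoded by Mmp3, also activates other proMMPs. The log2 channel signal of Mmp3 was 10.55, 11.42 and 11.56 in the RNAs labeled RANK-/- of pairs 1, 2 and 3, and 11.63, 9.34 and 8.42 in the RNAs labeled RANK+/+. The groups overlapped, because the highest signal of all 6 RNAs was that of the RNA labeled RANK+/+ of pair 1 and the 2 lowest were the other RNAs with this label. The SD was 1.66 in the group labeled RANK+/+ and 0.54 in the group labeled RANK-/- (n = 3 each). Mmp3 was thus 2.11-fold lower in the RNA labeled RANK-/- in pair 1, 4.23-fold higher in pair 2 and 8.82-fold higher in pair 3. The mean log2 ratio was 1.38 ± 2.20 (SD, n = 3; 95% interval -0.98 to 3.74), with a limma adjusted p of 1.00. It was 2.61 over pairs 2 and 3, which share a dye arrangement, 1.03 without pair 2 and 0.50 without pair 3, against -1.08 in pair 1 alone. With dye orientation as a term the estimate was 0.77.

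Mmp11 encodes stromelysin 3, an MMP of stromal cells around carcinomas that is activated inside the cell by furin. Its brighter probe gave log2 signals of 9.37, 9.04 and 9.41 in the RNAs labeled RANK-/- and 8.66, 9.13 and 9.45 in the RNAs labeled RANK+/+. The groups overlapped, and the lowest signal was in the RNA labeled RANK+/+ of pair 1. The log2 ratios were 0.71, -0.10 and -0.04, with a mean of 0.19 ± 0.45 (SD, n = 3; limma adjusted p 1.00), and the mean was -0.070 without pair 1, 0.33 without pair 2 and 0.31 without pair 3. The dimmer probe gave 0.47, 0.09 and 0.05. Both probes were therefore highest in pair 1 and had opposite signs to each other in pairs 2 and 3, where both were near 0.

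Collagenase 3, encoded by Mmp13, cleaves fibrillar collagens and is the main interstitial collagenase of the mouse. Mmp13 signals were 9.80, 7.38 and 10.02 in the RNAs labeled RANK-/- and 7.57, 9.07 and 7.59 in the RNAs labeled RANK+/+. The lowest signal of all was in the RNA labeled RANK-/- of pair 2, and the 2 highest were in the other RNAs with this label, so the groups overlapped. Mmp13 was 4.70-fold higher in the RNA labeled RANK-/- in pair 1, 3.23-fold lower in pair 2 and 5.41-fold higher in pair 3. The mean log2 ratio was 0.99 ± 2.33 (SD, n = 3; 95% interval -1.50 to 3.49), with a limma adjusted p of 1.00. Pairs 2 and 3 had the same dye arrangement and opposite signs. The mean was 2.34 without pair 2, 0.37 without pair 1 and 0.27 without pair 3.

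The gelatinases cleave denatured collagen and the type IV collagen of basement membranes. Mmp2, gelatinase A, is typically a product of fibroblasts. Its log2 signals were 10.68, 10.44 and 11.22 in the RNAs labeled RANK-/- and 10.82, 9.49 and 9.39 in the RNAs labeled RANK+/+. Only in pair 1 did the RNA labeled RANK+/+ reach the signals of the group labeled RANK-/-. The log2 ratios were -0.14, 0.95 and 1.83, or 1.10-fold lower, 1.93-fold higher and 3.55-fold higher. The mean was 0.88 ± 0.98 (SD, n = 3; 95% interval -0.23 to 1.98; limma p 0.0937, adjusted p 1.00), and it was 1.39 without pair 1 and 0.40 without pair 3.

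Mmp9, gelatinase B, is abundant in neutrophils and macrophages. It was near the detection limit in these CD45- fractions. Its probe is spotted 10 times on each array, and in pair 1 9 or 10 of the spots were well above background in both channels. In pair 2 none (0 of 10) was in either channel. In pair 3, 7 spots on array A and 9 on array B were well above background in the channel labeled RANK-/-, and 0 in the other. By the majority of its spots, Mmp9 was detected for the RNA labeled RANK-/- on 4 of 6 arrays and for the RNA labeled RANK+/+ on 2 of 6, and it passed the filter through the former alone. The log2 signals were 6.45, 6.02 and 6.29 in the RNAs labeled RANK-/- and 6.38, 6.03 and 6.07 in the RNAs labeled RANK+/+. The groups overlapped within a narrow band. The ratios were 0.08, -0.00 and 0.22 (mean 0.10 ± 0.11, SD, n = 3; 95% interval -0.28 to 0.48), and the SD over spots of an array was 0.07 to 0.12. Because of its low signal the value depended on the background correction, and the mean was 0.29 with a normexp offset of 0, 0.22 among the deposited series ratios and 0.61 with the scanner software's processed signals.

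Membrane-type MMPs sit in the plasma membrane, and MT1-MMP, encoded by Mmp14, activates proMMP-2 in a complex with TIMP-2. The signals of Mmp14 were 9.49, 8.51 and 9.70 in the RNAs labeled RANK-/- and 9.47, 8.56 and 9.48 in the RNAs labeled RANK+/+. Both RNAs of pair 2 were lower than the others, while the RNAs within each pair were alike. The log2 ratios were 0.02, -0.05 and 0.22, or at most 1.17-fold, and the mean of 0.06 ± 0.14 (SD, n = 3) had a 95% interval from -0.33 to 0.46. It turned to -0.014 without pair 3 and to -0.11 with median centring in place of loess, a setting that moved the median of all genes from 0.0045 to -0.138 (log2).

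Mmp15 encodes MT2-MMP, which also activates proMMP-2. Signals of 10.25, 8.78 and 9.94 were measured in the RNAs labeled RANK-/-, and 9.53, 9.52 and 9.06 in the RNAs labeled RANK+/+. The highest and the lowest signals both lay in the group labeled RANK-/-. Mmp15 was 1.65-fold higher in the RNA labeled RANK-/- in pair 1, 1.68-fold lower in pair 2 and 1.84-fold higher in pair 3, which are the signs of Mmp13. The mean log2 ratio was 0.29 ± 0.90 (SD, n = 3; 95% interval -0.73 to 1.30; limma adjusted p 1.00), with 0.07 without pair 1, 0.80 without pair 2 and -0.012 without pair 3.

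Among the inhibitors, TIMP-1 is a secreted protein that is induced in many inflamed and tumor tissues. Timp1 signals were 11.63, 11.47 and 11.95 in the RNAs labeled RANK-/- and 12.00, 11.78 and 11.31 in the RNAs labeled RANK+/+. The groups overlapped completely, with values labeled RANK+/+ on both sides of the others. The log2 ratios of -0.37, -0.32 and 0.65 averaged -0.02 ± 0.57 (SD, n = 3; 95% interval -0.72 to 0.69), and the sign of the mean turned without pair 1 (0.16) or without pair 2 (0.14).

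TIMP-2 inhibits MMPs and also takes part in proMMP-2 activation. The brighter probe of Timp2 gave log2 signals of 15.37, 14.48 and 15.21 in the RNAs labeled RANK-/- and 13.86, 15.30 and 14.04 in the RNAs labeled RANK+/+. The RNA labeled RANK-/- was the higher one in pairs 1 and 3 and the lower one in pair 2, and the groups overlapped. The differences were 2.86-fold higher, 1.77-fold lower and 2.26-fold higher, with a mean log2 ratio of 0.62 ± 1.27 (SD, n = 3; 95% interval -0.77 to 2.01; limma adjusted p 1.00). The dimmer Timp2 probe had the same signs (0.80, -0.81 and 0.49) and a mean of 0.16 ± 0.85, so the probes differed in size, mainly in pairs 1 and 3. The mean of the brighter probe was 0.18 without pair 1, 1.35 without pair 2 and 0.35 without pair 3. With median centring it was 0.23, where the median of all genes was -0.138.

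TIMP-3 is held in the extracellular matrix and also blocks ADAM17. The signals of Timp3 were 11.69, 12.50 and 12.20 in the RNAs labeled RANK-/- and 13.06, 12.32 and 12.90 in the RNAs labeled RANK+/+. The signals labeled RANK+/+ of pairs 1 and 3 lay above all those labeled RANK-/-, and that of pair 2 did not. Timp3 was 2.60-fold lower in the RNA labeled RANK-/- in pair 1, 1.14-fold higher in pair 2 and 1.62-fold lower in pair 3. Its mean of -0.63 ± 0.78 (SD, n = 3; 95% interval -1.54 to 0.27; limma p 0.128, adjusted p 1.00) was the lowest of the 10, and it was -1.04 without pair 2 and -0.26 without pair 1.

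**Figure D3:**
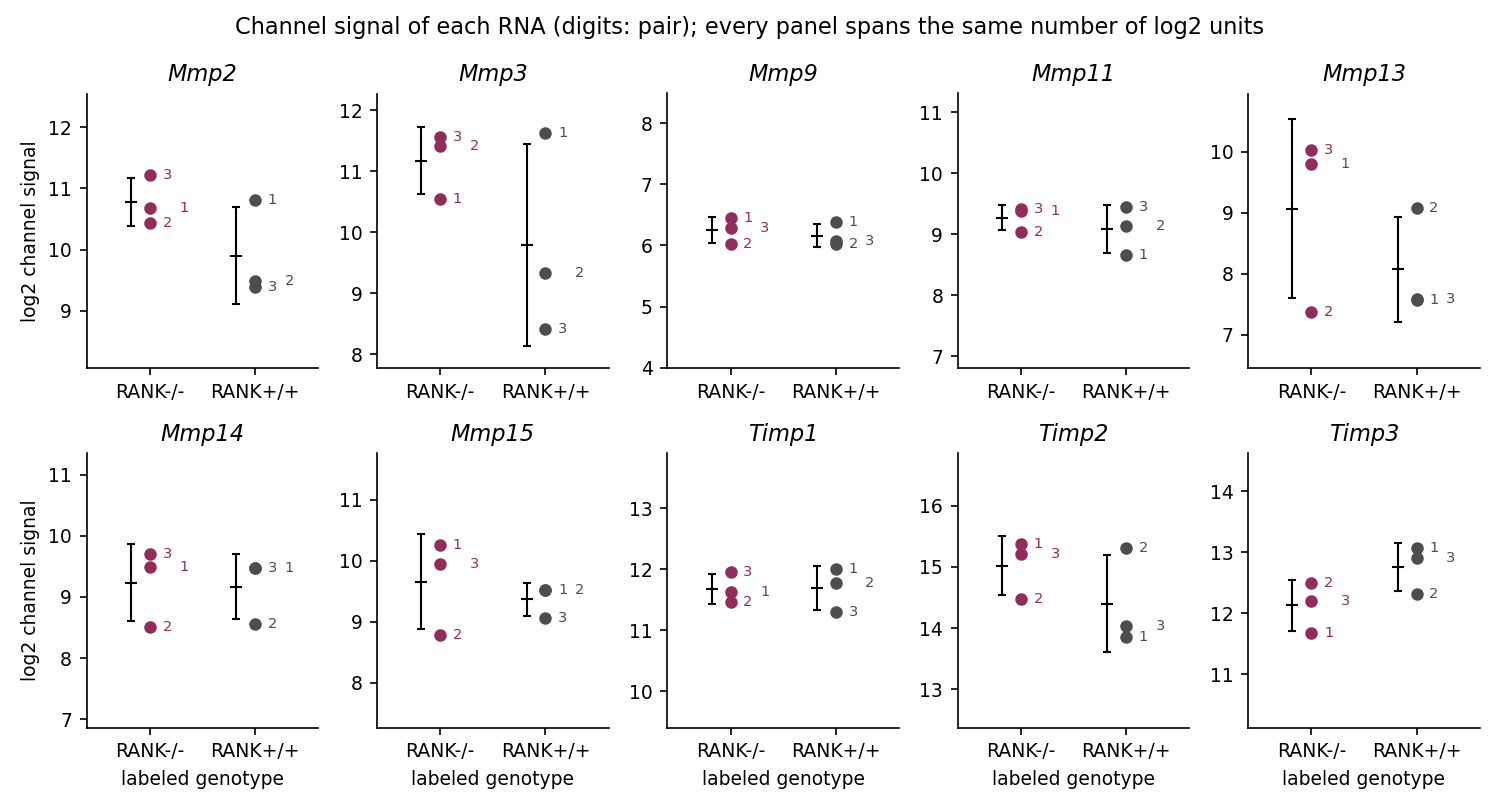
Log2 channel signal (y axis, log2 units) of each RNA labeled RANK-/- and RANK+/+ for the 10 genes, with the pair number beside each point and black bars for the mean and SD (n = 3 per group). The groups overlap in every panel, and for Mmp3 the RNA labeled RANK+/+ of pair 1 stands at 11.63 while the others with this label lie at 9.34 and 8.42.

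Within each pair, the median ratio of the 7 MMP genes was set against that of the 3 TIMP genes. In pair 1 the medians were 0.08 for the MMP genes and -0.37 for the TIMP genes. The corresponding medians of pair 2 were -0.05 and -0.32, and those of pair 3 were 0.88 and 0.65. The MMP median was thus 0.45, 0.27 and 0.24 log2 units above the TIMP median. The MMP median of pair 1 was the ratio of Mmp9, which passed the filter through the RNA labeled RANK-/- alone, and without Mmp9 the differences were 0.74, 0.24 and 0.71. With the scanner software's processed signals they were 0.69, 0.33 and 0.91. These are descriptions of 3 pairs with no test.

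The range over the pairs was widest for Mmp3, at 4.22 log2 units. By Euclidean distance over the 3 pair ratios, among 14672 named genes, the genes most like it were Efemp1 (distance 0.67 log2 units), Dcn (0.72), Rarres2 (0.87), Vegfd (0.88) and Lgals7 (0.98). Dcn encodes decorin, a proteoglycan of fibroblasts, and had ratios of -0.71, 1.50 and 2.92. Efemp1 encodes the extracellular matrix protein fibulin-3, and had -0.89, 1.63 and 2.67. These genes were chosen for the likeness, over 3 points that share their arrays.

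The median of the fibroblast markers was lowest in pair 1 and highest in pair 3, as were the ratios of Mmp2 and Mmp3. In pair 1, however, this median was above 0, and Mmp2 (-0.14) and Mmp3 (-1.08) were below 0. Not all markers had this order, and Col1a1, Col6a1, Pdgfrb, Thy1 and Postn were lowest in pair 2. Other MMP genes of the 10 did not have it either. Mmp11 (0.71, -0.10 and -0.04) was highest in pair 1, and Mmp9, Mmp13, Mmp14 and Mmp15 were lowest in pair 2. Pair 1 was also the only pair in which the RNA labeled RANK-/- carried Cy5, so its place in the order cannot be told apart from the dye arrangement. Of 14 markers, all tested, 6 were higher in the RNA labeled RANK-/- in all pairs (9.95% of all genes), 0 were lower in all pairs and 0 were called. Their median log2 ratios were 0.19, 0.50 and 1.55 in pairs 1, 2 and 3, where the medians of all genes were 0.02, -0.01 and 0.00. The highest mean was that of Col1a2, a chain of type I collagen (1.28 ± 0.96, SD, n = 3), and the lowest that of Postn, which encodes periostin (0.10 ± 0.80). Summed over the markers, the channel signal ranged from 154710 to 254110 in the RNAs labeled RANK-/- and from 60410 to 157720 in the RNAs labeled RANK+/+, with the highest sum labeled RANK+/+ in pair 1. None of the defining markers was at background. The part of the fibroblast share in the Mmp2 and Mmp3 ratios was not tested, and in RNA from a mixed fraction fewer cells of a type and less RNA per cell cannot be told apart.

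**Figure D4:**
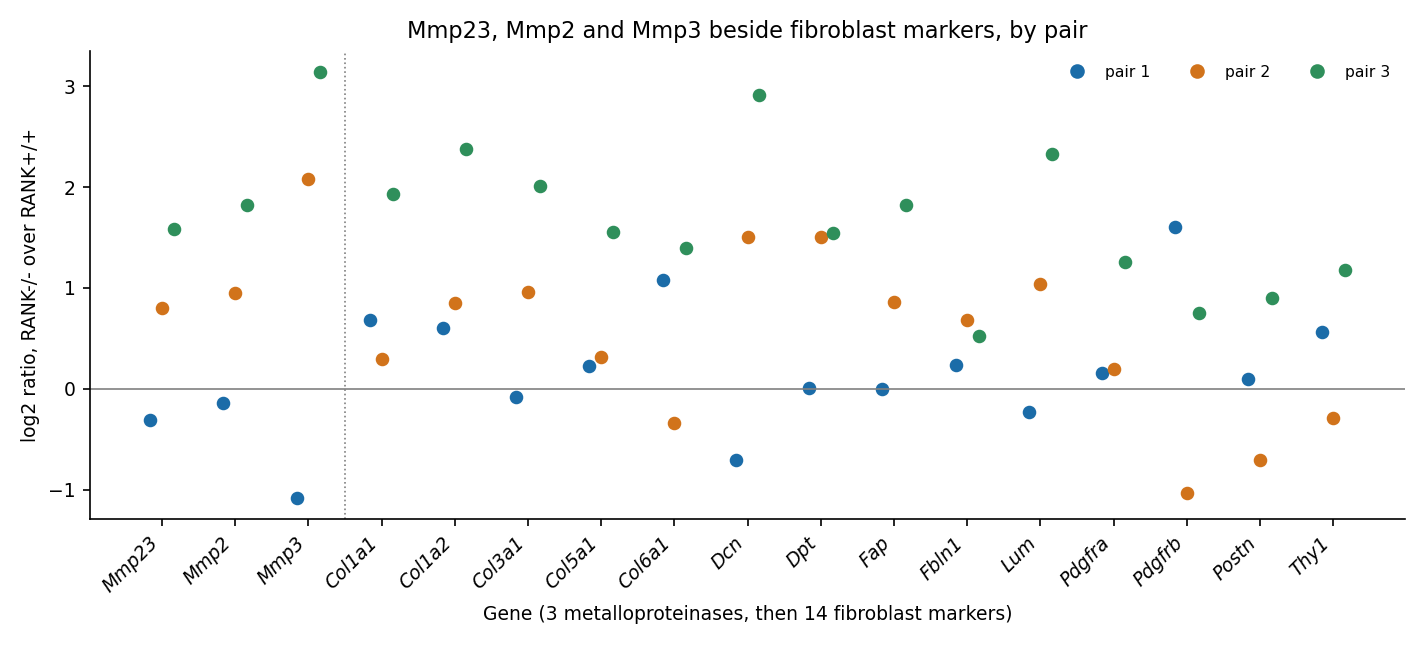
Log2 ratio (y axis) of Mmp23, Mmp2 and Mmp3, left of the dotted line, and of the 14 fibroblast markers, with 1 point per pair. Mmp23, Mmp2 and Mmp3 are lowest in pair 1 and highest in pair 3, as is Dcn (-0.71, 1.50 and 2.92), while Postn and some other markers are lowest in pair 2.

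The other structural cell types of the tumor were described in the same way. Pericyte and smooth muscle markers, with 6 of 6 tested, had medians of 0.68, -0.59 and 0.02, and their summed signal was 20013 to 33260 in the RNAs labeled RANK-/- and 16348 to 30827 in the others. Their highest and lowest means were those of Rgs5 (0.33) and Myh11 (-0.32). Luminal epithelial markers, with 9 of 9 tested, had medians of 0.27, -0.67 and 0.93 and sums of 167990 to 481100 and of 196540 to 306280. These medians had the signs of Mmp13, Mmp15 and Timp2, as did Epcam, Krt18, Cldn3 and Elf3. Krt8, Krt19, Cdh1, Cldn4 and Cldn7 had other signs, and the share of all genes with the signs of Mmp13 was not counted. The signs were not particular to luminal markers. They were also those of the pericyte and endothelial medians and of the fibroblast markers Col6a1, Pdgfrb, Thy1 and Postn. The other fibroblast markers had other signs. In the luminal list Krt8, a keratin of luminal cells, had the highest mean (0.37) and Krt19 the lowest (-1.71). Endothelial markers (8 of 8 tested) had medians of 0.01, -0.06 and 0.56 and sums of 3611 to 4320 and of 2938 to 3989, with means from 0.00 for Cdh5 to 0.55 for Cldn5. Basal myoepithelial markers (7 of 7 tested) had medians of 0.28, 0.02 and 0.08 and sums of 27777 to 31825 and of 34026 to 52815, with means from -1.23 for Krt17 to 0.89 for Oxtr. In every pair the basal sum was lower in the RNA labeled RANK-/-, while the median was above 0. Sum and median thus disagreed in direction, and neither is a measure of basal cell content. For all these lists 0 genes were called, and their part in the MMP and TIMP ratios was not tested.

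Markers of the leukocytes that produce Mmp9 were examined beside it. Neutrophil markers had 8 of 9 genes measured and 5 tested, with Cxcr2, Mpo and Retnlg not passing the filter and Ly6g not matched to a probe. Their medians were -0.96, 0.07 and -0.11, and S100a9, a calcium-binding protein of neutrophils and some epithelia, had the lowest mean (-1.47 ± 2.30, SD, n = 3) with ratios of -4.12, -0.04 and -0.25, while Csf3r had the highest (0.11). The summed neutrophil signal was 44225 to 57678 in the RNAs labeled RANK-/- and 45959 to 66123 in the others. In pair 1 the sums were 57678 and 66123, although S100a8 and S100a9 had ratios of -3.99 and -4.12. The sum thus did not follow these markers and is not a measure of neutrophil content. Mmp9 was 0.08 in pair 1, where S100a9 was -4.12, Camp -0.96, Ngp -0.40 and Csf3r 0.42. Because the Mmp9 ratio was near background and depended on the background correction, its size cannot be compared with theirs. Macrophage markers (9 of 9 tested) had medians of -0.26, 0.25 and 0.19 and sums of 14726 to 16120 and of 6926 to 16736, with means from -0.14 for Cd68 to 0.61 for Cd14. Leukocyte markers had 5 of 6 genes tested, without Cd79a, medians of -0.92, 0.20 and 0.14, and sums of 1299 to 2186 and of 1030 to 2962, with means from -0.29 for Coro1a to 0.50 for Cd52. Their part in the Mmp9 ratio was not tested.

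Of 16 other MMP genes, 15 had a probe and 5 passed the detection filter, and 0 of them were called. Mmp7 encodes matrilysin, a small MMP made by epithelial cells. Its signals were 7.41, 6.74 and 7.28 in the RNAs labeled RANK-/- and 8.44, 7.76 and 7.93 in the RNAs labeled RANK+/+, so that the groups did not overlap. The log2 ratios of Mmp7 were -1.03, -1.03 and -0.65, with a mean of -0.90 ± 0.22 (SD, n = 3) and the same sign in 3 of 3 pairs. The limma p of 0.0038 did not pass the adjustment (adjusted p 1.00). Mmp17, a membrane-type MMP anchored by a lipid, was also lower in all pairs, with ratios of -0.49, -0.28 and -0.12 (mean -0.30 ± 0.19; limma adjusted p 1.00). Its signals of 6.94, 6.94 and 7.13 in the RNAs labeled RANK-/- and 7.44, 7.22 and 7.25 in the RNAs labeled RANK+/+ did not overlap either. Lower in all pairs were thus 2 of these 5, compared with 9.65% of all genes, and entirely below the other group were the same 2, compared with 3.77%.

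The remaining other MMP genes crossed 0. Mmp23, a membrane-bound MMP, had signals of 8.67, 8.80 and 9.31 in the RNAs labeled RANK-/- and 8.97, 8.0 and 7.73 in the others. Its ratios were -0.31, 0.80 and 1.58 (mean 0.69 ± 0.95, SD, n = 3), in the same order over the pairs as Mmp2 and Mmp3. Mmp10, stromelysin 2, had ratios of 0.63, -0.29 and 0.57 (mean 0.30 ± 0.51) and the signs of Mmp13, and was detected on 4 of 6 arrays for each RNA. Mmp19 had 0.07, -0.02 and 0.47 (mean 0.18 ± 0.26). Not tested, because they did not pass the filter, were Mmp1a, Mmp1b, Mmp8, Mmp12, Mmp16, Mmp20, Mmp21, Mmp24, Mmp25 and Mmp28, and Mmp27 was not matched to a probe. Mmp8, the neutrophil collagenase, was detected on 0 of 6 arrays for either RNA, and Mmp12, the macrophage elastase, was detected on 1 of 6 for the RNA labeled RANK-/- and on 2 of 6 for the RNA labeled RANK+/+.

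**Figure D5:**
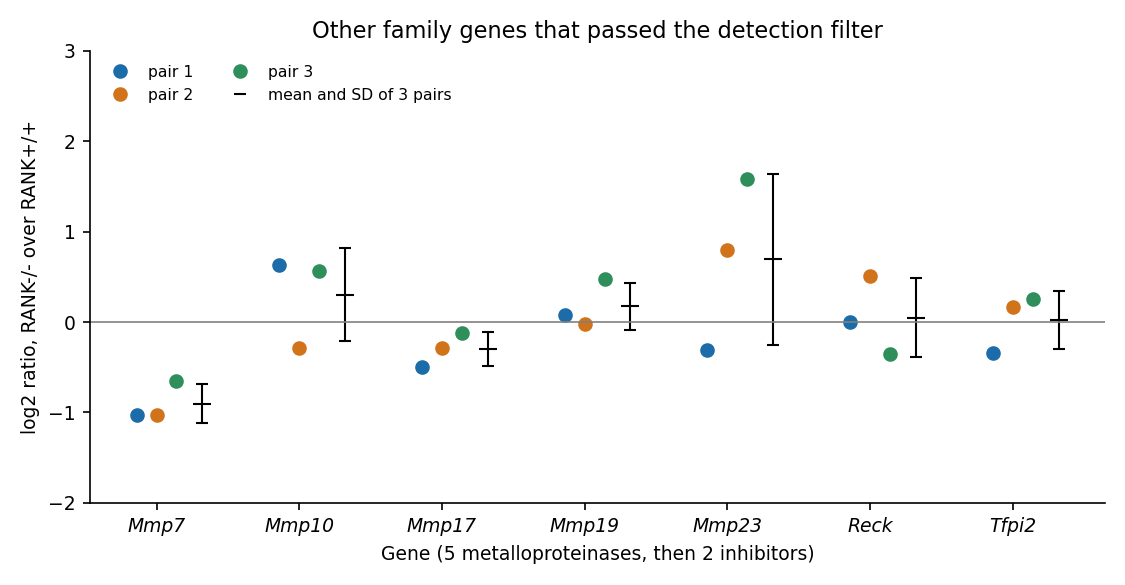
Log2 ratio (y axis) of the 5 other MMP genes and 2 other inhibitors that passed the filter, with 1 point per pair and black bars for the mean and SD (n = 3). Mmp7 lies between -1.03 and -0.65 and Mmp17 between -0.49 and -0.12, below 0 in every pair, and the other genes do not keep a sign.

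Of 5 other inhibitors, Reck and Tfpi2 were tested. Reck, a membrane-anchored inhibitor of several MMPs, had ratios of 0.00, 0.50 and -0.36 (mean 0.05 ± 0.43, SD, n = 3). Tfpi2, a serine protease inhibitor of the matrix, had -0.34, 0.16 and 0.25 (mean 0.02 ± 0.32). Timp4, A2m and Pzp were not tested, and Timp4 was detected for the RNA labeled RANK-/- on 1 of 6 arrays and for the RNA labeled RANK+/+ on 2 of 6.

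Genes that act before the MMPs were also without calls. Of 16 genes of the plasminogen system and proMMP activation, 15 were tested (Plg was not), with medians of -0.19, -0.20 and 0.57. The means ran from -0.77 ± 0.77 (SD, n = 3) for Pcsk6, a convertase of the furin family, to 0.70 ± 1.13 for Ctsb, a lysosomal cathepsin. Of these 15, 1 was higher and 1 was lower in all pairs. Of 14 genes for ADAM and ADAMTS proteases, 13 were tested (Adamts12 was not), with medians of 0.03, 0.17 and 0.34, and 3 were higher in all pairs (9.95% of all genes). Adamts2, which trims procollagen, had the highest mean (0.64 ± 0.45), and Adam8, a protease of leukocytes and carcinoma cells, the lowest (-0.89 ± 1.15).

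The AP-1 subunits were given because the promoters of Mmp3 and Mmp13 hold AP-1 letters. All 7 were tested and 0 were called, with medians of 0.44, -0.45 and 1.12 in pairs 1, 2 and 3. These medians had the signs of Mmp13 (2.23, -1.69 and 2.44) and not those of Mmp3 (-1.08, 2.08 and 3.14). Of the single subunits, Fosb, Fosl2 and Jund had the signs of Mmp13, and Fos, Fosl1, Jun and Junb did not. The share of all genes with these signs was not counted, and a link to Mmp13 was not tested. Fosl2 had the highest mean (0.97 ± 1.19, SD, n = 3; ratios 0.84, -0.15 and 2.21) and Fos the lowest (-0.29 ± 0.28; ratios 0.03, -0.45 and -0.46). Of the 7, 1 was higher in all pairs and 0 were lower.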

How the data were processed

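The authors scanned 6 two-color SurePrint G3 mouse arrays and measured the spots with Feature Extraction (version 10.7.3.1). The scanner tables, as deposited, give for each spot and channel a median intensity and a median background intensity, both unnormalized, and a processed intensity that the software had background-subtracted and dye-normalized. The deposited series table holds log2 ratios normalized by the authors. Its direction, found by setting it against the scanner ratios, was RANK-/- over RANK+/+ on 6 of 6 arrays. Per the labels, the technical replicates of a pair shared their dye arrangement, although dye swaps are described in the methods. Slide and scan date could not be tested, because there was 1 of each. Unmatched sample columns numbered 0.

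Median signals were corrected with normexp (offset 50), control spots (3671 per array) and outlier spots were dropped, and ratios were normalized by loess and Aquantile (limma 3.58.1, R 4.3.3, data.table version 1.17.8). Spots of a probe were averaged, ratios were turned to RANK-/- over RANK+/+, and A and B were averaged, giving n = 3. For single genes, channel signals were compared within a probe only, and for marker lists they were summed over the probes of a list. The brightest probes weigh most in such a sum. The number of arrays limits the precision. The detection filter kept 30231 of 55681 probes, those called well above background by the software on A and B alike in 2 or more pairs for either genotype. The brightest probe stood for a gene. RefSeq accessions named 28026 probes, and other rows are under their deposited names. The tests were limma (intercept only, two-sided, Benjamini-Hochberg, threshold 0.05) and a rank product against a gamma reference, after the study's kind of test (proportion of false positives under 0.05). Limma was tried on simulated ratios whose spread was smaller than that of the real pairs, so this does not show its power here. The rank product was checked only against full enumeration on a small set of random ranks.

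Same-numbered RNAs of a pair did not deviate together from their group means (r = -0.0344, -0.218 and -0.041), so the pair entered only through the ratio within an array. The genes and lists were chosen with earlier results of these data known. Named were all 10 genes, the other MMP genes and inhibitors, the highest and lowest mean of each further list, Tnfrsf11a, and the 5 genes nearest to the member with the widest range. Ptprc was named beyond this rule, after its values were seen. Alternatives covered background correction, normalization, filter, probe choice, dye, pairing and each pair left out.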

Additional observations from a re-analysis of the deposited data

How the results depend on the processing

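The number of arrays and the spread between pairs limit these results, and Mmp9 is further limited by its signal near background. At an unadjusted p below 0.05, limma gave 0 members in the reported fit, 4 without pair 2, 2 without pair 1, 3 with the random block, 1 with dye orientation as a term, 1 with median centring and 0 under the other alternatives. No member was called under any alternative run (0 by limma and 0 by the rank product), and the limma adjusted p over members and alternatives ranged from 0.5495 to 1. Of the member means, those of Mmp2, Mmp3, Mmp9, Mmp13, Timp2 and Timp3 kept their sign under every alternative run. Leaving out each pair in turn gave 0.40 to 1.39 for Mmp2, 0.50 to 2.61 for Mmp3, 0.04 to 0.15 for Mmp9, 0.27 to 2.34 for Mmp13, 0.18 to 1.35 for Timp2 and -1.04 to -0.26 for Timp3. The sign turned for Mmp11 (-0.070 to 0.33), Mmp14 (-0.014 to 0.12), Mmp15 (-0.012 to 0.80) and Timp1 (-0.35 to 0.16) when a pair was left out, for Mmp14 with median centring (-0.11) and for Timp1 on array A alone (0.0030). Median centring moved the median of all genes from 0.0045 to -0.138, so relative to it Mmp14 stayed above 0. The MMP median minus the TIMP median was 0.69 in pair 1 and 0.91 in pair 3 with Agilent processed signals, 0.59 in pair 1 with a normexp offset of 0 and 0.63 in pair 1 among the deposited series ratios, and 0.74 in pair 1 and 0.71 in pair 3 without Mmp9 (chosen after seeing the data); the cause was not tested. With the 6 arrays fitted and the pair as a random replicate block (consensus correlation 0.962), limma called 13 of 22503 genes, against 0 without it, and 0 members. The rank product called 7 genes, 19 with its exact distribution (chosen after seeing the data), 23 with no filter on dim probes, and 0 to 5 with a pair left out (2 without pair 1, 0 without pair 3). The slide as a block was not run, because all arrays lay on 1 slide.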
